A study of Homo sapiens with 6 samples.

Results

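The genes described here make cholesterol and fatty acids, carry the SREBP control of that synthesis, or move and store sterols. They are 43 genes listed by pathway function, with earlier results of these data known, and 40 of them were measured among the 18417 genes of the arrays. The remaining 3 had no probe set of their own: HSD17B7 shared one with its pseudogene, and FDFT1 and ACSL3 were not analysed here. A probe set is the group of probes that reads one transcript, and where a gene had more than 1, the brightest was used.

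RL is a human cell line from a B-cell lymphoma that carries t(14;18), the translocation that places BCL2 beside the immunoglobulin heavy-chain locus. RL cells given LY317615 for 48 h filled 3 arrays, and untreated RL cells, also titled 48 h, filled 3. LY317615 is enzastaurin, a small molecule made to block the beta form of protein kinase C. All cells were grown in serum-containing medium, and the total RNA was read on Affymetrix Gene 1.0 ST arrays. The labels state a dose of 2.5 mM, a unit that could not be verified from the files, and mention no vehicle. The question put to the arrays was which RNAs differ in this 1 cell line after treatment.

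Cells make cholesterol from acetyl-CoA through mevalonate, farnesyl diphosphate, squalene and lanosterol, and they make fatty acids from the same acetyl-CoA through malonyl-CoA. SREBP transcription factors switch on most of these enzymes. They are held in the endoplasmic reticulum by SCAP and INSIG proteins while sterols are plentiful, and are cut free by site-specific proteases in the Golgi when sterols run low. LXR receptors act in the opposite situation: they sense oxysterols and raise the genes that export cholesterol. Dividing lymphocytes are known to raise lipid synthesis to build membrane.

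Median intensity over all probe sets lay between 60.0 and 61.4 on the LY317615 arrays and between 56.7 and 58.2 on the untreated arrays. Precision is limited by there being 3 arrays a group. The labels do not tie replicates to separate cultures, so the p-values speak to array spread only, part of which may be technical. LY317615 replicate 3 stood apart, with an array weight of 0.376, against 1.04 to 1.51 on the other 5 arrays, and it had the lowest LY317615 value of 28 of the 40 genes. All 5 measured B-cell markers (MS4A1, CD79A, CD79B, PAX5 and CD22) lay in the top 20% of genes by intensity, where 47.6% of all genes were called lower. Of these markers 4 were called lower, with log2 fold changes from -1.16 (CD22) to -0.28 (CD79A). The 5 T-cell markers ranked from percentile 11.6 to 30.2 of untreated intensity and 1 was called higher, CD3E at 0.45. The 4 myeloid markers ranked from percentile 19.2 to 30.5 and 3 were called higher, with changes from 0.37 to 0.50. Over all genes 14.2% were called higher. In the second-dimmest 20% of genes, where the 4 myeloid markers and CD3E lay, 666 of 3683 were called higher. The part of these markers in the results below was not tested. In bulk RNA, fewer cells of a kind and less RNA per cell cannot be told apart.

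RNA of most sterol and fatty acid synthesis genes was lower in LY317615-treated cells. INSIG1, the sterol-responsive brake on SREBP, was 2.84-fold lower, the desaturase gene SCD 2.30-fold lower, and HMGCS1, which makes HMG-CoA, 2.09-fold lower. In all, 26 of the 40 genes fell at an adjusted p of 0.05 in limma (Benjamini-Hochberg over all genes), where 21.4% of all genes were called lower. None of the 40 was called higher, where 14.2% of all genes were; at an unadjusted p of 0.05, 1 was higher, the sterol reductase gene TM7SF2, where 21.2% of all genes were. The median log2 fold change was -0.35 over the 40 genes and 0.02 over all genes. Falls of at least 1 on the log2 scale were seen in 3 of the 40 genes, against 1.03% of all genes. The LY317615 arrays all lay below the untreated arrays in 30 of the 40 genes, against 27.8% of all genes. These backgrounds cover genes of any intensity, and genes of like intensity are compared next.

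The listed genes were mostly bright, and bright genes fell more often on these arrays. Of the 40 genes, 16 lay in the top 20% of all genes and 20 in the next 20%. In the top 20% 13 of the 16 were called lower, against 47.6% of all genes there, and in the next 20% 12 of the 20, against 37.0%. The median log2 fold change was -0.21 over all genes of the top 20% and -0.14 over those of the next 20%. The median of -0.35 over the 40 genes is therefore nearer to that of bright genes than to that of all genes. The LY317615 arrays all lay below the untreated arrays in 2223 of the 3684 genes of the top 20%. In the next 20% this held for 1753 of 3683 genes, and among the listed genes for 30 of the 40. Cyclic loess is a scaling meant to level intensity-dependent trends across arrays. It gave 22 of the 40 genes called lower, against 17.8% of all genes, and 2 called higher, against 12.9%. In the top 20% of all genes it still left 1164 of 3684 called lower and 682 higher, with a median log2 fold change of -0.08. Of the 26 genes called lower as deposited, 21 were among these 22, and ABCG1 was gained. All 26 genes called lower kept a negative change as deposited, after cyclic loess and with equal array medians, and 21 of them were called lower under all 3 scalings. Without LY317615 replicate 3, the count of genes called lower was again 26, with SC5D lost and ABCG1 gained. The part of the intensity trend in these changes was not tested.

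**Figure D1:**
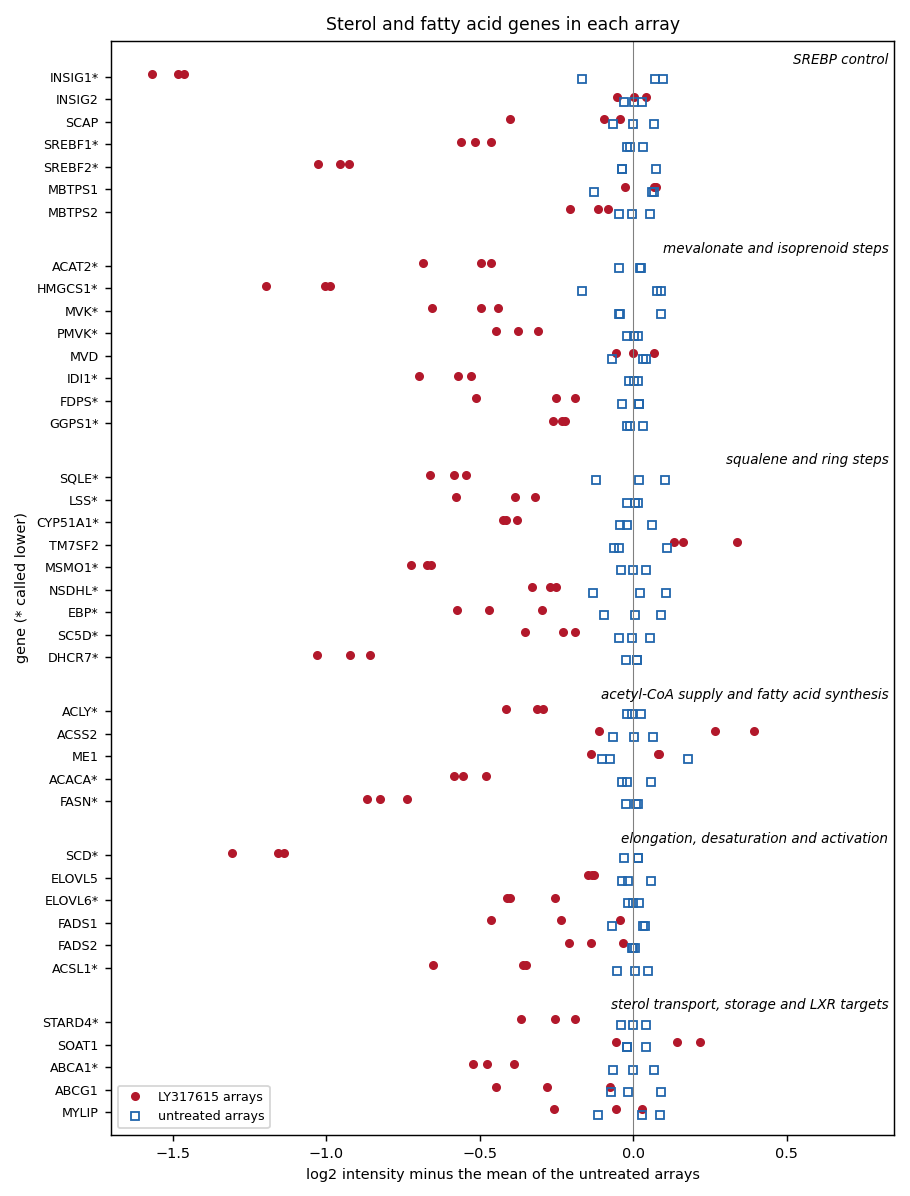
Log2 intensity of each of the 40 measured genes in each array, minus the mean of the 3 untreated arrays, by pathway step; filled circles are LY317615 arrays, open squares untreated arrays, and an asterisk marks the 26 genes called lower. The LY317615 circles lie left of all untreated squares in 30 genes, farthest for INSIG1, SCD and HMGCS1, and right of them in TM7SF2.

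**Figure D2:**
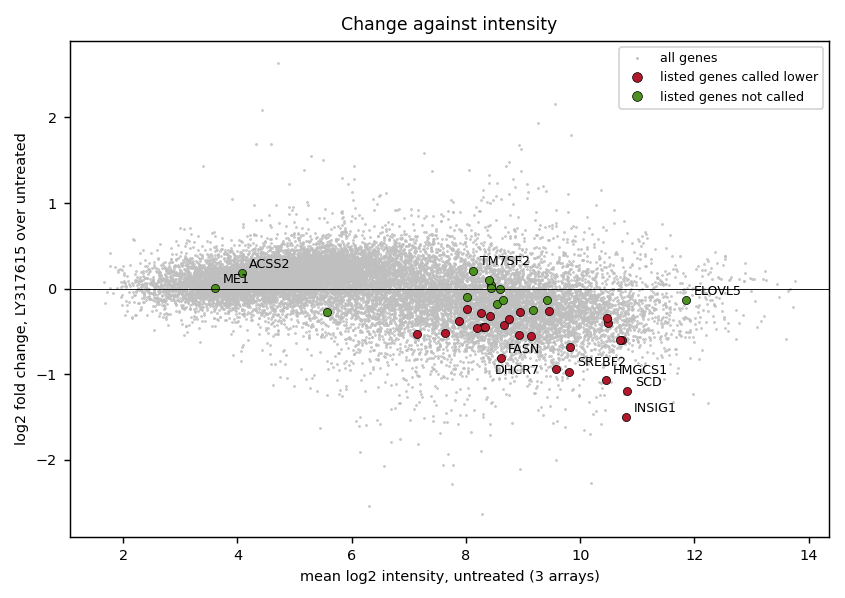
Log2 fold change (LY317615 over untreated) against mean log2 intensity in the 3 untreated arrays; grey points are all 18417 genes, red points the 26 listed genes called lower and green points the 14 not called. The grey cloud drifts below 0 toward bright genes, and INSIG1, SCD, HMGCS1, SREBF2 and DHCR7 lie at or below -0.94.

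Of the 7 genes that control SREBP, 3 fell: INSIG1, SREBF2 and SREBF1. Of the 7 genes 2 lay in the top 20% of genes by intensity, where 47.6% fell, and 5 in the next 20%, where 37.0% fell, so the count of 3 is near the background. INSIG1 (probe set 8137526) encodes an endoplasmic reticulum protein that retains SCAP and SREBP, and it is itself a well-known SREBP target. Its log2 intensity was 9.34, 9.33 and 9.24 on the LY317615 arrays, against 10.64, 10.88 and 10.90 on the untreated arrays. The groups were far apart, and the log2 fold change was -1.50 ± 0.09 (SE, limma adjusted p = 2.04e-05). SREBF2, which encodes the SREBP that mainly drives sterol genes, read 8.88, 8.86 and 8.78 on the LY317615 arrays, against 9.78, 9.89 and 9.77 on the untreated arrays. Its change was -0.97 ± 0.07 (SE, limma adjusted p = 5.88e-05), with no overlap. SREBF1, whose SREBP-1c form mainly drives fatty acid genes and is also an LXR target, read 7.08, 7.12 and 7.17 on the LY317615 arrays and 7.62, 7.63 and 7.67 on the untreated arrays. This was a fall of 0.51 ± 0.07 on the log2 scale (SE, limma adjusted p = 0.000817), again without overlap.

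The other control genes were not called. INSIG2, a second retention protein, averaged 8.59 ± 0.05 in LY317615 cells and 8.60 ± 0.03 in untreated cells (SD, n = 3 each), with a 95% interval for the log2 fold change of -0.16 to 0.16. SCAP, the escort that carries SREBP to the Golgi, had a log2 fold change of -0.18 with an interval of -0.42 to 0.06, and its lowest value was that of LY317615 replicate 3. MBTPS1 and MBTPS2, the proteases that release SREBP in turn, had log2 fold changes of 0.04 and -0.13. The intervals of INSIG2 and MBTPS1 (-0.15 to 0.23) allow small changes either way. Those of SCAP and MBTPS2 (-0.30 to 0.04) lie mostly below 0 and allow larger falls than rises. A further probe set that MBTPS2 shares with YY2, a gene within its locus, was lower on all 3 LY317615 arrays, with a change of -0.42 ± 0.08 (SE, limma adjusted p = 0.00977 over all probe sets). That probe set cannot be assigned to MBTPS2 alone.

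Related genes were then compared within each array, by the difference between their 2 log2 intensities, for 6 pairs. With 3 arrays against 3 the exact two-sided permutation test cannot go below p = 0.1. The INSIG1 minus INSIG2 difference was lower in LY317615 cells by -1.50 (exact p = 0.1, adjusted p = 0.15 over the 6 pairs), and it lay lower on 3 of 3 LY317615 arrays than on any untreated array. The SREBF2 minus SREBF1 difference shifted by -0.46 (exact p = 0.1, adjusted p = 0.15), also without overlap. Both shifts kept their direction and their separation after cyclic loess. These tests cannot pass a threshold of 0.05 at this size.

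Promoter letters were searched around the starts of these genes. SREBP proteins bind sterol regulatory elements, here searched as TCACNCCAC and its shorter form TCACNCCA, which overlap, and the palindromic E-box TCACGTGA. They commonly act with NF-Y, which binds CCAAT, and with SP1, which binds GGGCGG; both strands were searched. The stretches below are shown because they set the 2 INSIG genes beside each other, with the control gene SREBF2 and the sterol enzyme gene MSMO1. Each is the 250 bases before a RefSeq start on GRCh38.p14, 5′ to 3′ on the gene's strand, with matches to the first 4 motifs in capitals. They lie at chr7:155297628-155297877 (INSIG1, plus strand), chr22:41832855-41833104 (SREBF2, plus strand), chr4:165327419-165327668 (MSMO1, plus strand) and chr2:118088221-118088470 (INSIG2, plus strand, the first of its listed starts).
INSIG1: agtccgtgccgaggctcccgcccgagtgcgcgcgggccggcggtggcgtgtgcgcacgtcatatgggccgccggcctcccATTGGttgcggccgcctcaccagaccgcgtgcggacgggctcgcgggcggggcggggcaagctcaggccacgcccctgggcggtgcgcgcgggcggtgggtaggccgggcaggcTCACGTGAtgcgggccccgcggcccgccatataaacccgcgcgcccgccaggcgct
SREBF2: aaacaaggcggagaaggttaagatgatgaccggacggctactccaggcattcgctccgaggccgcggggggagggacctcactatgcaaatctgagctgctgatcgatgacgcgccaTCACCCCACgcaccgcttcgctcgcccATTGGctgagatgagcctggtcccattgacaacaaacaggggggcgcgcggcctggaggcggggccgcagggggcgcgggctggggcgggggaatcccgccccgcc
MSMO1: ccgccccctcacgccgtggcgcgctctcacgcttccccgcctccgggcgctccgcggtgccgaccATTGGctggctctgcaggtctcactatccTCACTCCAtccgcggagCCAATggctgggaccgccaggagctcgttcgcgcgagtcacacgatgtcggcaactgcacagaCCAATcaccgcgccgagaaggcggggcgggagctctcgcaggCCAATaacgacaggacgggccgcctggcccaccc
INSIG2: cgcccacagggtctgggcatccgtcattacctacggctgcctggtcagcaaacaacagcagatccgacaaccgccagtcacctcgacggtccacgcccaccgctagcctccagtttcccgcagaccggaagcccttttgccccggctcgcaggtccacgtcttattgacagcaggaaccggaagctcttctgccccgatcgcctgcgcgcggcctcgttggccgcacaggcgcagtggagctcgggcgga

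INSIG1 held TCACGTGA at bases -56 to -49 from its start and CCAAT on the opposite strand at -170 to -166. SREBF2 held TCACCCCAC at -133 to -125, with CCAAT on the opposite strand at -106 to -102. MSMO1 held TCACTCCA at -156 to -149 and 4 CCAAT matches, while MVK and NSDHL held 5 CCAAT matches each. The INSIG2 stretch held none of the first 4 motifs, which says only that these letters are not in that window. The windows of SREBF1, PMVK, ELOVL6, CYP51A1 and ABCA1, which fell, also held none of these motifs. Nor did those of SCAP, MBTPS1, MBTPS2 and FADS1, which were not called. For SREBF1 only a single start was searched. HMGCS1, SCD and DHCR7, which fell, had CCAAT in a window but no TCACNCCA or TCACGTGA. TCACNCCA stood before the start of MVK and before a single one of the listed starts of ACSL1, and both genes fell. In ME1, which was not called, it lay after the start, at bases 18 to 25.

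Promoter windows from 250 bases before to 50 after a start were found in the RefSeq table for 36 of the 40 genes, 53 windows in all. CCAAT stood in 54.7% of them and GGGCGG in 79.2%, against 34.6% and 45.0% of all 35116 windows. The full set was not limited to genes bright on these arrays, as most of the listed genes were. The sterol elements were rarer: TCACNCCAC stood in 3.77% of the listed genes' windows and 1.13% of all windows, and TCACNCCA in 9.43% and 3.95%. TCACGTGA stood in 1.89% and 0.98%, which for the listed genes is INSIG1 alone. Among windows of genes called lower CCAAT stood in 59.5% of 37, and among windows of genes not called in 43.8% of 16. GGGCGG stood in 81.1% of the windows of genes called lower and in 75% of those of genes not called. Windows of 1 gene can overlap, so these shares describe the sequences and carry no test.

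Of the 8 genes of the mevalonate and isoprenoid steps, 7 fell, against 21.4% of all genes. In the top 20% of genes by intensity 3 of 3 fell, against 47.6% of all genes there. In the next 20% 3 of 4 fell, against 37.0%. After cyclic loess 5 of the 8 were lower, against 17.8% of all genes and 1164 of the 3684 genes in the top 20%. ACAT2, which joins acetyl-CoA units, changed by -0.55 ± 0.08 (SE). HMGCS1 (probe set 8111941) makes HMG-CoA from that product, and read 9.25, 9.44 and 9.46 on the LY317615 arrays against 10.28, 10.54 and 10.52 on the untreated arrays. The groups did not overlap, and the change was -1.06 ± 0.10 (SE, limma adjusted p = 0.000127). LY317615 replicate 1, not replicate 3, held the lowest value of this gene.

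The kinase genes MVK and PMVK, which phosphorylate mevalonate, changed by -0.53 ± 0.09 and -0.38 ± 0.07 (SE). MVD, which removes the carboxyl group in the next step, was the exception: it averaged 8.44 ± 0.06 in LY317615 cells and 8.43 ± 0.06 in untreated cells (SD, n = 3 each), with an interval of -0.17 to 0.18. IDI1, which isomerises the resulting isoprene unit, read 10.17, 10.21 and 10.04 on the LY317615 arrays and 10.75, 10.72 and 10.74 on the untreated arrays. It fell by 0.60 ± 0.08 on the log2 scale (SE, limma adjusted p = 0.000521), with all LY317615 values below all untreated ones. FDPS and GGPS1, which build the farnesyl and geranylgeranyl chains, had smaller changes of -0.32 ± 0.10 and -0.24 ± 0.07 (SE). Their calls were lost after cyclic loess, with changes of -0.18 and -0.13 (adjusted p = 0.101 and 0.146), and without any 1 of the untreated replicates, and that of GGPS1 also without LY317615 replicate 2. FDPS has pseudogenes, and 2 probe sets that it shares with FDPSP2 had changes of -0.07 and -0.001.

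Of the 9 measured genes from squalene to cholesterol, 8 fell, against 21.4% of all genes. In the top 20% of genes by intensity 5 of 5 fell, against 47.6% of all genes there. In the next 20% 3 of 4 fell, against 37.0%. After cyclic loess 6 of the 9 were lower and 1 higher, against 17.8% and 12.9% of all genes. The top 20% of genes then had 1164 of 3684 lower and 682 higher. SQLE, which oxidises squalene, read 10.15, 10.11 and 10.03 on the LY317615 arrays and 10.57, 10.71 and 10.80 on the untreated arrays, a change of -0.60 ± 0.08 (SE, limma adjusted p = 0.000885). The groups did not overlap. LSS, which closes the sterol rings to form lanosterol, changed by -0.43 ± 0.09 (SE), and CYP51A1, the lanosterol demethylase, by -0.41 ± 0.07 (SE). A dimmer probe set of CYP51A1 changed by -0.40 ± 0.10 (SE, adjusted p = 0.0279 over all probe sets), so both probe sets of this gene moved down.

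Removal of ring methyl groups continues after CYP51A1 with MSMO1, a methyl sterol oxidase. MSMO1 read 9.15, 9.10 and 9.16 on the LY317615 arrays and 9.78, 9.86 and 9.82 on the untreated arrays, a change of -0.68 ± 0.07 (SE, limma adjusted p = 0.000204). Within each group its arrays lay within 0.1 of each other. NSDHL, which acts after MSMO1, changed by -0.28 ± 0.08 (SE), a call lost after cyclic loess (-0.16, adjusted p = 0.197), without LY317615 replicate 1 and without untreated replicate 2 or 3. The probe set shared by HSD17B7, the reductase that follows, and its pseudogene HSD17B7P2 averaged 7.08 ± 0.05 in LY317615 cells and 8.05 ± 0.08 in untreated cells (SD, n = 3 each). The shared value fell by 0.97 ± 0.08 on the log2 scale (SE, adjusted p = 0.00101 over all probe sets), and how much of it is HSD17B7 cannot be told apart.

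The last steps move double bonds. EBP, the sterol isomerase, changed by -0.45 ± 0.09 (SE), and SC5D, a sterol desaturase, by -0.26 ± 0.08 (SE). After cyclic loess the SC5D change was -0.11 (adjusted p = 0.253) and was not called. Its call was also lost without LY317615 replicate 1 or 3 and without any 1 of the untreated replicates, where the change stayed between -0.28 and -0.21. DHCR7, the reductase that completes cholesterol, read 8.72, 8.65 and 8.55 on the LY317615 arrays and 9.55, 9.59 and 9.59 on the untreated arrays. The untreated values were nearly equal, and the change was -0.94 ± 0.08 (SE, limma adjusted p = 7.01e-05).

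TM7SF2, a sterol reductase acting after CYP51A1, went against the rest of the steps. It read 8.25, 8.46 and 8.28 on the LY317615 arrays and 8.23, 8.07 and 8.05 on the untreated arrays. All LY317615 values were above all untreated values, but by little, and the change of 0.21 ± 0.09 (SE, limma adjusted p = 0.0904) was not called. After cyclic loess it was 0.35 ± 0.08 (SE, adjusted p = 0.0160), which was called, and with array medians set equal 0.13 (adjusted p = 0.289).

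**Figure D3:**
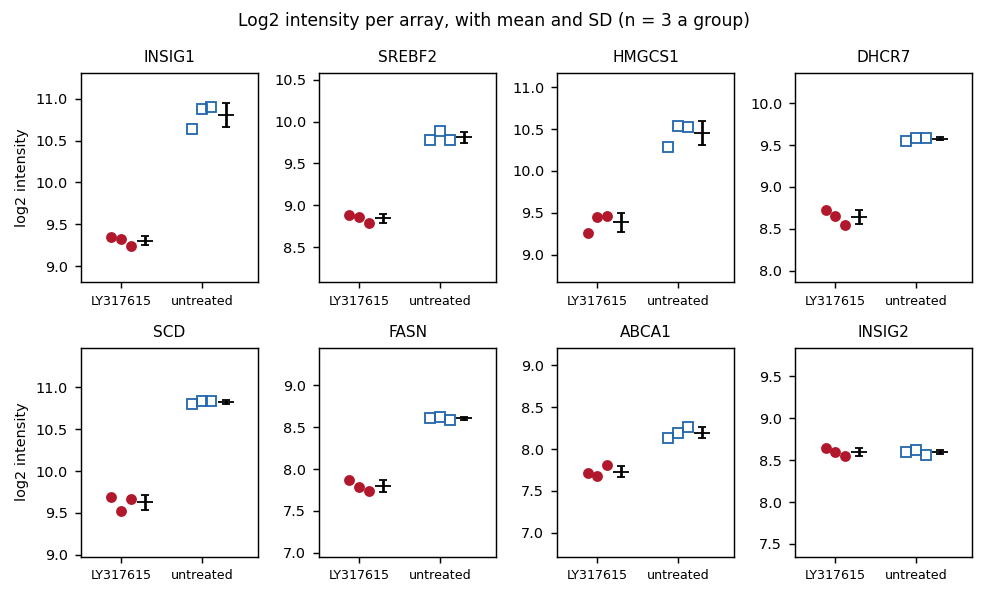
Log2 intensity of 8 genes per array, LY317615 arrays as red circles left of untreated arrays as blue squares, each group with its mean and SD (n = 3) in black; all panels span the same number of log2 units. INSIG1, SREBF2, HMGCS1, DHCR7, SCD, FASN and ABCA1 are lower in LY317615 cells with no overlap, and INSIG2 overlaps.

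Of the 5 genes that supply acetyl-CoA and NADPH and build the first fatty acid chains, 3 fell, as they did after cyclic loess. In the top 20% of genes by intensity 1 of 1 fell, against 47.6% of all genes there. In the next 20% 2 of 2 fell, against 37.0%. ACLY, which splits citrate to acetyl-CoA in the cytosol, changed by -0.34 ± 0.07 (SE). ACACA, which makes malonyl-CoA, read 8.45, 8.35 and 8.38 on the LY317615 arrays and 8.99, 8.91 and 8.90 on the untreated arrays, a change of -0.54 ± 0.07 (SE, limma adjusted p = 0.000732). FASN, the synthase that builds palmitate, read 7.87, 7.78 and 7.74 on the LY317615 arrays and 8.61, 8.62 and 8.58 on the untreated arrays. It fell by 0.81 ± 0.07 on the log2 scale (SE, limma adjusted p = 0.000112), and in neither gene did the groups overlap. ACSS2, which activates acetate, and ME1, a malic enzyme that yields NADPH, lay at the 14.1th and 8.2th percentile of untreated intensity. No detection calls were available for any gene, which limits such dim genes most. The ACSS2 and ME1 changes of 0.18 ± 0.12 and 0.01 ± 0.10 (SE) were not called.

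Fatty acid elongation, desaturation and activation showed 3 of 6 measured genes lower, near the 37.0% and 47.6% of all genes of like intensity. SCD, which makes monounsaturated fatty acids, read 9.69, 9.52 and 9.67 on the LY317615 arrays and 10.80, 10.84 and 10.84 on the untreated arrays. The groups were over 1 log2 unit apart, and the change was -1.20 ± 0.08 (SE, limma adjusted p = 2.43e-05). ELOVL6, which extends palmitate, changed by -0.36 ± 0.08 (SE), and ACSL1, which links fatty acids to CoA, by -0.45 ± 0.10 (SE), with the lowest ACSL1 value, 7.69, in LY317615 replicate 3. ELOVL5, an elongase of polyunsaturated chains and one of the brightest genes of the arrays (99.4th percentile), had a change of -0.14 ± 0.07 (SE, limma adjusted p = 0.157). Its 3 LY317615 values all lay below the untreated ones, and limma called it lower once its prior variance was allowed to follow intensity. The desaturase genes FADS1 and FADS2, which act on polyunsaturated fatty acids, had changes of -0.25 ± 0.11 and -0.13 ± 0.08 (SE) and were not called. FADS1 was called lower with array medians set equal (-0.33), with a prior variance that follows intensity and without LY317615 replicate 1 (-0.35). Without LY317615 replicate 3 its change was -0.14, and after cyclic loess -0.09, neither called.

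Within arrays, the ELOVL6 minus ELOVL5 difference shifted by -0.22 in LY317615 cells (exact p = 0.1, adjusted p = 0.15 over the 6 pairs), without overlap. The FADS2 minus FADS1 difference shifted by 0.12 (exact p = 0.4, adjusted p = 0.4) and the MBTPS1 minus MBTPS2 difference by 0.17 (exact p = 0.3, adjusted p = 0.36). In both of these pairs the arrays overlapped.

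Sterol transport, storage and LXR targets gave 2 of 5 genes lower. Of the 5 genes 1 lay in the top 20% and 3 in the next 20%, so that count is near the background of 47.6% and 37.0% there. ABCA1, the exporter that loads cholesterol onto apolipoproteins, read 7.72, 7.67 and 7.81 on the LY317615 arrays and 8.13, 8.19 and 8.26 on the untreated arrays, a change of -0.46 ± 0.08 (SE, limma adjusted p = 0.00207). It is a classic LXR target, and here it moved in the same direction as the synthesis genes, without overlap. STARD4, a cytosolic sterol carrier under SREBP control, changed by -0.27 ± 0.08 (SE), a call lost after cyclic loess (-0.12, adjusted p = 0.199) and without untreated replicate 2 or 3. ABCG1, a second exporter and LXR target, was dimmer (38.5th percentile) and read 5.29, 5.12 and 5.50 on the LY317615 arrays and 5.55, 5.50 and 5.66 on the untreated arrays. Replicates of the 2 groups nearly touched, and its change of -0.27 ± 0.10 (SE, limma adjusted p = 0.0722) was not called; it was called lower with array medians set equal (-0.35), after cyclic loess (-0.39), with array weights, with a replicate block, without the dimmest 30% of genes and without LY317615 replicate 3.

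MYLIP, a ubiquitin ligase of lipoprotein receptors and another LXR target, averaged 7.92 ± 0.15 in LY317615 cells and 8.01 ± 0.10 in untreated cells (SD, n = 3 each). SOAT1, which esterifies cholesterol for storage, read 8.62, 8.54 and 8.34 on the LY317615 arrays and 8.38, 8.38 and 8.44 on the untreated arrays. Only LY317615 replicate 3 lay below the untreated values, and the change of 0.10 ± 0.09 (SE, limma adjusted p = 0.395) was not called; after cyclic loess it was 0.25 ± 0.07 (SE, adjusted p = 0.0288). The ABCA1 minus ABCG1 difference shifted by -0.19 as deposited (exact p = 0.1, adjusted p = 0.15 over the 6 pairs) and by 0.04 after cyclic loess.

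The gene of miR-33a lies within SREBF2, and in mammals this microRNA is known to repress ABCA1. A link between the SREBF2 and ABCA1 changes was not tested. The mature form of miR-33a is shown because its host gene and this target are both among the listed genes. It is from RefSeq (GRCh38.p14, chr22:41900949-41900969, plus strand), with the seed of bases 2 to 8 in capitals.
hsa-miR-33a-5p: gUGCAUUGuaguugcauugca
The probe set of MIR33A, looked up outside the listed genes, averaged 3.25 ± 0.21 in LY317615 cells and 3.26 ± 0.19 in untreated cells (SD, n = 3 each) and lay at the 4.7th percentile of untreated intensity. Such a probe set reads precursor RNA and not the mature microRNA, and the mature form was not analysed here.

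**Figure D4:**
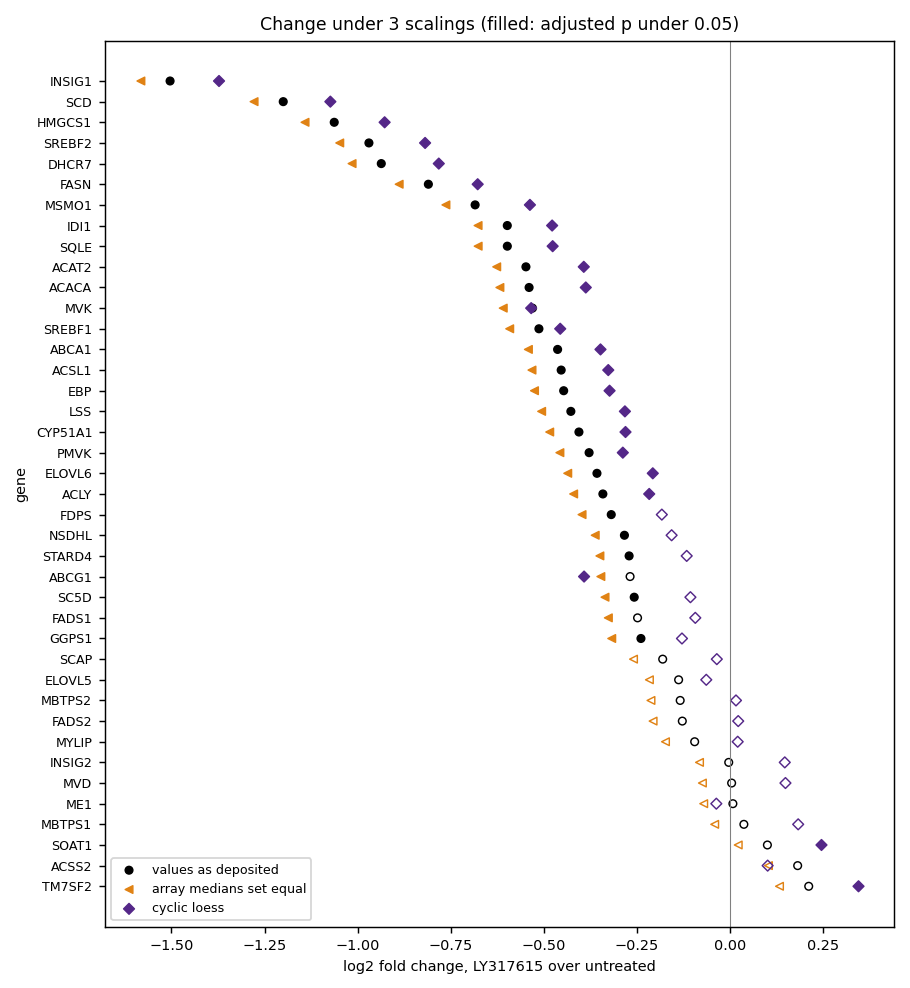
Log2 fold change (LY317615 over untreated) of the 40 genes, ordered by the change as deposited, under 3 scalings; circles are values as deposited, triangles array medians set equal and diamonds cyclic loess, filled where the adjusted p was under 0.05. Diamonds lie to the right of circles for most genes, 21 genes are filled on the negative side under all 3, and TM7SF2 and SOAT1 are filled on the positive side after cyclic loess.

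Neighbouring pathways were read from 7 further lists. Triglyceride and lipid droplet genes had 8 of 13 measured genes lower and 1 higher, against 21.4% and 14.2% of all genes. Their median log2 fold change was -0.35. In the top 20% of genes by intensity 4 of 4 fell, against 47.6% of all genes there. In the next 20% 3 of 5 fell, against 37.0%. PLIN2, which coats lipid droplets, averaged 8.44 ± 0.04 in LY317615 cells and 9.46 ± 0.07 in untreated cells (SD, n = 3 each), a change of -1.02 ± 0.08 (SE, limma adjusted p = 4.85e-05). LPIN1, a phosphatidate phosphatase and SREBP target, changed by -0.59 ± 0.07 (SE). DGAT1, which completes triglycerides, rose by 0.31 ± 0.10 (SE, limma adjusted p = 0.0360), a call lost with array medians set equal. After cyclic loess 6 genes of this list were lower and 1 higher, against 17.8% and 12.9% of all genes.

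Sterol uptake and intracellular transport genes had 7 of 15 lower and 1 higher, with a median of -0.19, against 21.4% lower and 14.2% higher over all genes. Of the 15 genes 8 lay in the top 20%, where 47.6% fell. After cyclic loess 5 were lower and 3 higher, against 17.8% and 12.9% of all genes. SCARB1, a lipoprotein receptor, averaged 8.04 ± 0.06 in LY317615 cells and 8.99 ± 0.08 in untreated cells (SD, n = 3 each), a change of -0.95 ± 0.08 (SE, limma adjusted p = 7.23e-05). OSBPL2, an oxysterol-binding protein relative, changed by -0.67 ± 0.08 (SE). NPC2, the lysosomal protein that hands cholesterol on to NPC1, moved the other way: it averaged 9.62 ± 0.19 in LY317615 cells and 8.53 ± 0.10 in untreated cells (SD, n = 3 each), a rise of 1.09 ± 0.11 (SE, limma adjusted p = 0.000158). NPC1 itself changed by -0.49 ± 0.09 (SE). NPC2 was called higher under all 3 scalings.

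In the isoprenoid branches 7 of 14 genes were lower and 1 higher, against 21.4% and 14.2% of all genes. In the top 20% of genes by intensity 2 of 6 fell, against 47.6% of all genes there. In the next 20% 5 of 6 fell, against 37.0%. After cyclic loess 4 of the 14 were lower and 2 higher, against 17.8% and 12.9% of all genes. The top 20% of genes then had 1164 of 3684 lower and 682 higher. DOLPP1, of the dolichol cycle, changed by -0.89 ± 0.13 (SE), and PDSS1, which makes the ubiquinone side chain, by -0.48 ± 0.09 (SE). ICMT, which methylates prenylated proteins, rose by 0.28 ± 0.09 (SE, limma adjusted p = 0.0469), a call lost with array medians set equal. Genes of SREBP and reductase turnover had 2 of 7 lower, SYVN1 at -0.44 ± 0.08 and PAQR3 at -0.24 ± 0.08 (SE), a share near the 21.4% of all genes. None of the 7 was called higher in limma, and 0 at an unadjusted p of 0.05. After cyclic loess 2 of the 7 were called higher, against 12.9% of all genes.

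Fatty acid oxidation had 5 of 16 genes lower and 2 higher, against 21.4% and 14.2% of all genes, with a median of -0.11. Of the 16 genes 10 lay in the top 20%, where 47.6% of all genes fell. After cyclic loess 3 were lower and 2 higher, against 17.8% and 12.9% of all genes, and the median of the list turned to 0.01. ACADM and ACAA2, of the mitochondrial cycle, changed by -0.46 ± 0.07 and -0.56 ± 0.11 (SE). HADH, which acts in the same cycle, averaged 9.75 ± 0.04 in LY317615 cells and 8.92 ± 0.06 in untreated cells (SD, n = 3 each), a rise of 0.84 ± 0.07 (SE, limma adjusted p = 0.000102) that was called under all 3 scalings. ACADS rose by 0.32 ± 0.09 (SE), a call lost under both other scalings.

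The other elongation and activation genes had 4 of 20 lower and 2 higher, a share lower close to that over all genes. After cyclic loess 4 were lower and 4 higher, against 17.8% and 12.9% of all genes. The median of the list then turned from negative to 0.04. The genes named by the rule were ACSS1 at -0.45 ± 0.07 and ACSL4 at -0.35 ± 0.07 (SE). ELOVL1 rose by 0.31 ± 0.07 (SE), a call lost with array medians set equal, and HACD4, which was dim, rose by 0.36 ± 0.09 (SE). LXR and oxysterol genes had 2 of 8 lower and 1 higher, near the 21.4% and 14.2% of all genes. SMPDL3A, an LXR target, changed by -0.66 ± 0.11 and the receptor partner gene RXRB by -0.62 ± 0.08, while its relative RXRA rose by 0.47 ± 0.12 (SE). The LXR gene NR1H3 had a change of -0.11 ± 0.07 (SE, limma adjusted p = 0.273).

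**Figure D5:**
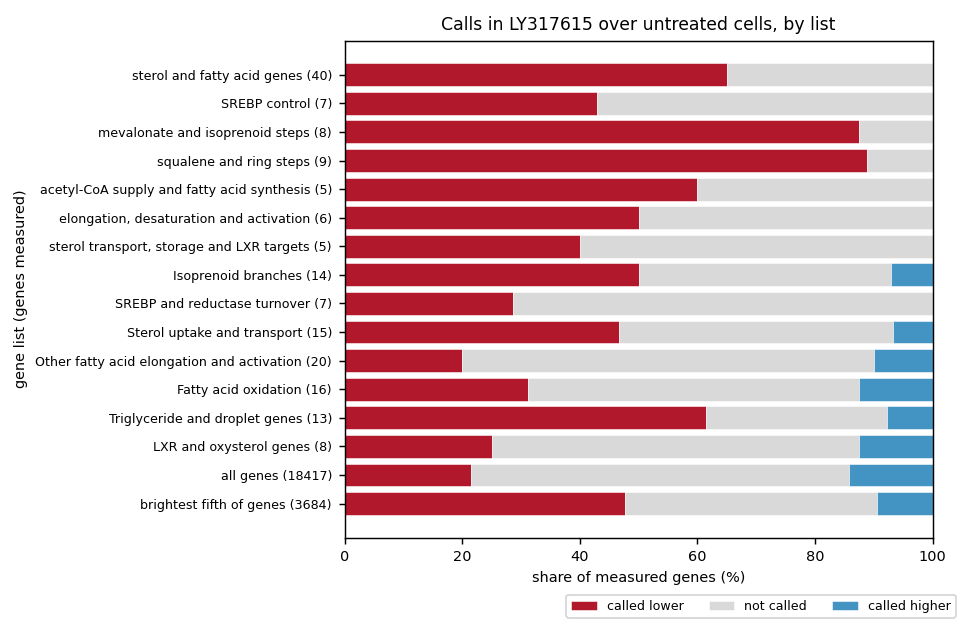
Share of measured genes called lower (red), not called (grey) and called higher (blue) in LY317615 over untreated cells, by list, with the number of genes measured in brackets; the lowest 2 bars are all genes and the top 20% of genes. The mevalonate list (7 of 8) and the squalene and ring list (8 of 9) have the longest red bars, against 21.4% of all genes and 47.6% of the top 20%.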

How the data were processed

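The deposited file holds, per the file's values, probe-set intensities on a linear scale for 33297 probe sets and 6 arrays, all above 0. The tools named, per the submitters' processing notes, are GCOS 1.4, Expression Console and RMA, in no stated order; RMA gives log2 values, so a return to the linear scale is implied and not stated. Log2 was taken with no added constant and no further scaling. Of the probe sets, 19460 carried 1 gene symbol, and the brightest per gene gave 18417 genes; no filter on intensity was applied. LY317615 was compared with untreated over all genes with limma 3.58.1 (R 4.3.3, eBayes without trend, two-sided, Benjamini-Hochberg, threshold 0.05), and the code was tested on simulated data. Same-numbered replicates did not deviate together (correlations -0.02, 0.09 and 0.07), so they were not treated as pairs. The genes and lists were chosen with earlier results of these data known. All 43 genes are accounted for; in further lists the 2 genes of smallest adjusted p in each direction were named, and NPC1, NR1H3 and MIR33A fall outside that rule. Promoter and microRNA sequences are from RefSeq, GRCh38.p14. Tables and figures used Python 3.11.15 and matplotlib 3.10.9.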

Additional observations from a re-analysis of the deposited data

How the results depend on the processing

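Of the 26 genes called lower, 21 stayed called under all 14 alternatives; the other 5 (FDPS, GGPS1, NSDHL, SC5D and STARD4) lost the call under several of them, and the cause was not tested. The count of listed genes called lower ran from 21 to 28 over the alternatives, and was 27 with the replicate number as a replicate block, which added ABCG1 and moved no other listed call. The count called higher was 0, and 1 (TM7SF2) with a prior variance that follows intensity, 2 (TM7SF2 and SOAT1) after cyclic loess and 0 to 1 when single arrays were left out (1, ACSS2, without LY317615 replicate 2). The median of the 40 genes was -0.25 after cyclic loess and -0.43 with equal array medians. Over all genes, 3946 were lower and 2622 higher; an adjusted p of 0.01 gave 2619 and 967, equal array medians gave 4861 and 1523, and leaving out single arrays gave 1566 (without untreated replicate 2) to 2538 higher, with 1715 without untreated replicate 3. The ABCA1 minus ABCG1 shift turned to 0.0441 after cyclic loess. No detection calls were available for any gene, so the values of dim genes (ME1, ACSS2, ABCG1 and HACD4) carry little.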
